A study of Mus musculus with 6 samples.

Results

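Genes that B cells switch on one after another as they develop were compared between sham-operated and partially discectomized jaw joints of mice. The 10 genes are Igll1, Vpreb1, Vpreb3, Rag1, Rag2 and Dntt, which mark B cell precursors, and Pax5, Ebf1, Cd79a and Cd79b, which the lineage keeps for most of its life and which are called pan-B genes here. They were chosen by name, and all 10 are among the 23170 genes of the authors' deposited table. The 6 libraries are of RNA from wild type mice and from the mandibular condyle, the joint end of the lower jaw, whose subchondral bone, the bone under the cartilage, was dissected out. Of these, 3 are labelled partial discectomy, in which part of the joint disc is cut away, and 3 sham operation. Surgery was on 1 side and the operated joint was taken. Both groups carry the age label P6w+PO2w, whose prefixes are not spelled out. The sham samples are also tagged Rctrl and the partial discectomy samples LPD, and what those tags mean cannot be told apart from the surgery. In the sample descriptions 1 sham and 1 partial discectomy library carry the same number, 6, and nothing says whether they share an animal. Nothing in the labels says that each library is a mouse of its own, so p-values measure at most the spread between these samples, which may be technical.

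B cells arise in bone marrow. A precursor first cuts and joins the gene segments of its antibody heavy chain, which the RAG1 and RAG2 proteins start and which terminal transferase, the product of Dntt, varies by adding bases at the joint. The new heavy chain is then tested with a stand-in light chain made of the Igll1 and Vpreb1 products, in a pre-B cell receptor that signals through the Cd79a and Cd79b products. Ebf1 and Pax5 encode transcription factors that set and hold the B lineage. Precursor genes are turned off as the cell matures, while Pax5, Ebf1, Cd79a and Cd79b stay on in mature B cells.

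All values are the authors' normalized expression values, whose unit is not named and whose sequencing depth is unknown. The smallest group mean in the authors' deposited table is exactly 1, which is taken here as an offset of 1 in every library and called the floor. Levels are given with the floor included unless stated, and since the unit is unknown they are not compared between genes. Ratios divide the partial discectomy mean by the sham mean. Calls rest on an adjusted p under 0.05 in the authors' deposited table. No value per library was analysed, but the table gives each gene's 2 group means, its highest library and its geometric mean over the 6 libraries. With every library at or above the floor, these numbers set limits, narrow for some genes and wide for others, on the lowest and the highest library of each group. Such ranges are given below as limits that follow from the table, and they do not say which library was which. The bone markers Col1a1, Bglap, Sp7, Dmp1, Ibsp and Alpl were all well above the floor in both groups. Their summed levels above it were 37654 after partial discectomy and 30019 in sham. Most of each sum came from Col1a1 (34179 and 27782), whose ratio had wide deposited limits, 0.134 and 11.3. None of these 6 was called in the authors' deposited table, or reached an unadjusted p under 0.05. All 6 ratios were above 1, from 1.07 to 1.81, with a median log2 ratio of 0.49. The lack of a call therefore does not show that the bone markers were unchanged.

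Of the 10 genes, Igll1 and Dntt rose after partial discectomy, and both are precursor genes. The authors' deposited table called 2 of the 6 precursor genes and 0 of the 4 pan-B genes higher, against 2.28% of all genes. None of the 10 was called lower, against 0.104% of all genes. At an unadjusted p under 0.05, which 10.9% of all genes passed towards higher, all 6 precursor genes and 3 of the 4 pan-B genes passed in the authors' deposited table, the exception being Ebf1. None was lower at that level, against 3.31% of all genes. Limits wholly above equal means were deposited for 5 precursor and 2 pan-B genes, and for 11.1% of all genes. For Rag1 and Pax5 limits and p disagree, as their unadjusted p was under 0.05 but their limits lay on both sides of equal means. How the authors made the limits is not given, so limits and p need not match for other genes either. All 10 ratios were above 1, as were 62.7% of all ratios in the table. In bulk RNA, more cells of a type and more RNA per cell cannot be told apart.

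**Figure D1:**
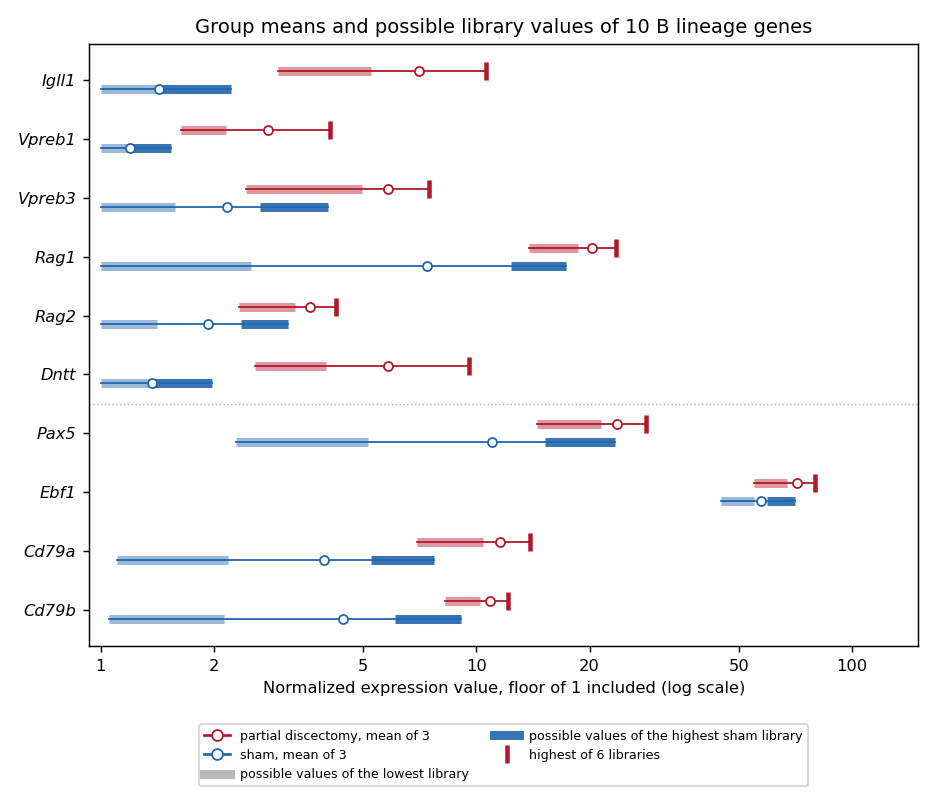
Values of the 10 genes on a log axis, with the mean of the 3 partial discectomy libraries (red) and of the 3 sham libraries (blue) as open points, the possible values of the lowest library as pale bars, those of the highest sham library as dark bars, and the highest of the 6 libraries as a red tick. For Igll1, Vpreb1 and Dntt the red range lies wholly above the blue one, while for Rag1 the blue range runs from the floor to at most 17.3.

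Igll1 encodes lambda5, the constant part of the stand-in light chain (chromosome 16, 16860671 to 16863985, minus strand, build mm10). Its highest library stood at 10.6, its lowest partial discectomy library between 2.96 and 5.24 and the remaining one between 5.24 and 7.53, while no sham library exceeded 2.23. The 3 partial discectomy libraries thus all lay above the 3 sham libraries. Its means were 7.02 after partial discectomy and 1.43 in sham, and it rose 4.91-fold (95% limits 2.69 and 8.96, adjusted p = 0.0200) in the authors' deposited table. By size of ratio it stood at rank 64 of all genes in that table. With the floor subtracted the means were 6.02 and 0.430, a ratio of 14.0. Above the floor, 53.0% of the summed partial discectomy values came from the highest library, and without it the ratio was 9.85.

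Vpreb1 encodes the variable part of the same light chain, and lies next to Igll1 on the same strand (chromosome 16, 16868403 to 16870843, with 4417 bases between the genes). Its highest library stood at 4.08, its lowest partial discectomy library between 1.64 and 2.15, and no sham library exceeded 1.54. The groups did not overlap, at levels close to the floor throughout. The ratio was 2.34 (95% limits 1.52 and 3.60) with an adjusted p of 0.0704, above the threshold, in the authors' deposited table. With the floor subtracted the means were 1.79 and 0.194, a ratio of 9.24, and 5.92 without the highest library. The near-identical copy Vpreb2 was not among the 23170 genes under that name, and reads may be split between the copies. The 5′ end of Vpreb1 overlaps Top3b on the opposite strand, which had a ratio of 1.11 in the authors' deposited table.

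Vpreb3 encodes a VpreB-like protein found with immunoglobulin chains inside precursor cells (chromosome 10, 75943057 to 75949657, plus strand). Its highest library stood at 7.49, its lowest partial discectomy library between 2.44 and 4.97 and its highest sham library between 2.66 and 4.02, so whether the groups overlapped cannot be settled. Its means were 5.81 and 2.17, a ratio of 2.68 (95% limits 1.34 and 5.34, adjusted p = 0.115) in the authors' deposited table.

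Dntt (chromosome 19, 41029275 to 41059525, plus strand) was the other gene that rose. Its highest library stood at 9.52, its lowest partial discectomy library between 2.57 and 3.97 and the remaining one between 3.97 and 5.37, while no sham library exceeded 1.98. Again the 3 partial discectomy libraries all lay above the 3 sham libraries. Its means were 5.82 and 1.37, a rise of 4.25-fold (95% limits 2.36 and 7.64, adjusted p = 0.0267) at rank 89 by ratio in the authors' deposited table. With the floor subtracted they were 4.82 and 0.371, a ratio of 13.0. Above the floor, 58.9% of the summed partial discectomy values came from the highest library, more than in any other of the 10 genes, and the partial discectomy mean above the floor without it was 2.97. Leaving out the highest library lowered the floor-subtracted ratio by over 1.5 times for Dntt and Vpreb1 and by less for Igll1 and the other 7.

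The groups lay apart for Igll1, Vpreb1 and Dntt, that is for 3 of the 10 genes, while partial discectomy libraries were certain to lie above all sham libraries for 10.3% of all genes. The reverse was certain for none of the 10 and for 3.32% of all genes. For the other 7 the table's summaries allow both overlap and none. Igll1, Vpreb1 and Dntt had the lowest sham means of the 10, 0.430, 0.194 and 0.371 above the floor. There the floor leaves the sham libraries little room, so separation is easier to establish for these 3 than for the other 7. The highest of the 6 libraries was certain to be a partial discectomy library for all 10 genes, and for 44.6% of all genes.

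The start regions of Igll1, Vpreb1 and Dntt, the 3 genes whose groups lay apart, are shown with that of Cd79a as a pan-B gene that was not called. Each is a RefSeq window from 250 bases before to 50 bases after the start that RefSeq gives the gene, 5′ to 3′ on the gene's strand, build GRCm38.p6. For Igll1 and Dntt that start is the first base of the span given above, while for Vpreb1 and Cd79a it lies inside the span of the deposited table. The capitals mark CAGGTG on either strand, an E-box to which E proteins such as the product of Tcf3 bind.
Igll1, chr16:16863936-16864235, minus strand: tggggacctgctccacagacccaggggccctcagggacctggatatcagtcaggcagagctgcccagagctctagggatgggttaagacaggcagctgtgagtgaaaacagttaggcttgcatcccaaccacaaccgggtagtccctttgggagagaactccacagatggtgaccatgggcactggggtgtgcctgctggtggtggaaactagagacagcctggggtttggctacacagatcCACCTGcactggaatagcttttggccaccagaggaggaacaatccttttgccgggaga
Vpreb1, chr16:16869206-16869505, minus strand: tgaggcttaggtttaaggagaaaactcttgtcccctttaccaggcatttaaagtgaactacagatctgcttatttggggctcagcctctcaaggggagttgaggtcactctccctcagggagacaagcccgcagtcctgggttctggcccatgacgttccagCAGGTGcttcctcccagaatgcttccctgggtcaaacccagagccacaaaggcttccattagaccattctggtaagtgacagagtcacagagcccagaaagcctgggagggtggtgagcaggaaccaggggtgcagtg
Dntt, chr19:41029025-41029324, plus strand: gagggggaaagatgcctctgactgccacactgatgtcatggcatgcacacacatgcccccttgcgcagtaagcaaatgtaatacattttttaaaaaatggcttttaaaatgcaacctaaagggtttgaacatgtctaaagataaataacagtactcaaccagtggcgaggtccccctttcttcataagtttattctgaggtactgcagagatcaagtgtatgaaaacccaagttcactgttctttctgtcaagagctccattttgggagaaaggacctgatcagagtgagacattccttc
Cd79a, chr7:24897247-24897546, plus strand: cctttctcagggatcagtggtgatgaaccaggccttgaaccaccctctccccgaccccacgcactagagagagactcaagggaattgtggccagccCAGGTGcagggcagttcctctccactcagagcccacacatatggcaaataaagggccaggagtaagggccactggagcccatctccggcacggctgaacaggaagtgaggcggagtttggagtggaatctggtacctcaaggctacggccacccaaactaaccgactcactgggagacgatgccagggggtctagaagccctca
This E-box was found in Igll1 at position -8, in Vpreb1 at -88 and in Cd79a at -154, counted from the RefSeq start to the leftmost base of the match, and in Rag1 at -135. It was thus in 4 of the 9 of these genes with a window, and in 20.2% of the 32851 windows of the table. The Ikaros core TGGGAA was in the windows of Rag1 and Ebf1 and in 25.6% of all windows. The palindrome TCCCNNGGGA, to which EBF1 binds, was in none of the 9 genes' windows and in 0.904% of all windows. A string this rare was likely to be missing from so few windows, and looser forms of it were not searched. Its absence therefore does not show that these windows lack EBF1 sites. No 2 of these matches overlapped. A match is a run of letters, and no binding was measured.

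Rag1 and Rag2 encode the 2 parts of the enzyme that starts the cutting of antibody and T cell receptor genes, and lie 5752 bases apart on opposite strands of chromosome 2. Rag1 spans bases 101638282 to 101649501. Its lowest sham library was at most 2.52 and its highest between 12.4 and 17.3, so the sham libraries differed at least 4.92-fold, the highest such minimum among the 10 genes. Its partial discectomy libraries were closer together, the lowest between 13.8 and 18.7 and the highest at 23.6. Its means were 20.3 and 7.38, a ratio of 2.75 (95% limits 0.908 and 8.33, adjusted p = 0.205) in the authors' deposited table.

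Rag2 (101624718 to 101632529) was near the floor, with means of 3.60 and 1.92. Its lowest partial discectomy library lay between 2.33 and 3.28 and its highest sham library between 2.36 and 3.16. The ratio was 1.87 (95% limits 1.10 and 3.17, adjusted p = 0.215) in the authors' deposited table, below those of the other precursor genes. Both genes lie within the span of B230118H07Rik, on the strand of Rag1, whose ratio was 0.982 with an adjusted p of 0.940, per the authors' deposited table.

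The pan-B genes Cd79a and Cd79b, which encode the signalling chains Ig-alpha and Ig-beta, had ratios near those of Vpreb3 and Rag1 and were not called. Cd79a (chromosome 7, 24897381 to 24902197, plus strand) had means of 11.6 and 3.92, a ratio of 2.95 (95% limits 1.39 and 6.27, adjusted p = 0.0932) in the authors' deposited table. Its lowest partial discectomy library lay between 6.96 and 10.4 and its highest sham library between 5.24 and 7.73. Its lowest sham library was at most 2.18, so the sham libraries differed at least 2.40-fold.

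Cd79b (chromosome 11, 106311341 to 106314762, minus strand) had means of 10.9 and 4.42, a ratio of 2.46 (95% limits 1.09 and 5.55, adjusted p = 0.172) in the authors' deposited table. Its partial discectomy libraries lay between 8.27 and 12.1, while its sham libraries differed at least 2.86-fold, with the lowest at most 2.13 and the highest between 6.08 and 9.11. As for Cd79a, the spread was wider in sham than after partial discectomy, where the libraries differed at most 1.47-fold for Cd79b and at most 2.00-fold for Cd79a.

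Pax5 (chromosome 4, 44524757 to 44710487, minus strand) had means of 23.7 and 11.0, a ratio of 2.16 (95% limits 0.938 and 4.96, adjusted p = 0.221) in the authors' deposited table. Its sham libraries ran from at most 5.15 to between 15.2 and 23.4, a difference of at least 2.95-fold. Its lowest partial discectomy library lay between 14.5 and 21.4 and the highest at 28.3. Rag1, Pax5, Cd79b and Cd79a thus all had sham libraries that differed more than 2-fold, and whether the same library was low in each is not known.

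Ebf1 (chromosome 11, 44617317 to 45008091, plus strand) had the smallest ratio of the 10. Its means were 71.2 and 57.1, a ratio of 1.25 (95% limits 0.912 and 1.70, adjusted p = 0.528) in the authors' deposited table. Its sham libraries differed at most 1.58-fold and the partial discectomy libraries at most 1.45-fold, and no library lay below 44.7. Fibroblasts, fat cells and marrow stroma also make Ebf1. Of 9 genes of marrow stroma and fat, the authors' deposited table called Cxcl12 (4.02-fold), Kitl (1.74-fold) and Pparg (2.36-fold) higher and none lower. Ratios were above 1 for 6 of the 9, and Prrx1 (0.612, 95% limits 0.379 and 0.989), Pdgfra (0.806) and Pdgfrb (0.833) lay below 1 in the authors' deposited table, none of them called. The list's summed levels above the floor were 1016 after partial discectomy and 904 in sham. That sum hides differences in both directions, with Cxcl12 at 322 and 79.5 and Prrx1 at 250 and 409 above the floor. The part of these cells in the level of Ebf1 was not tested. Of its paralogs, Ebf3 rose 1.97-fold (95% limits 1.50 and 2.58, adjusted p = 0.0208), Ebf2 had a ratio of 0.560 and Ebf4 one of 0.769, neither called, in the authors' deposited table.

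**Figure D2:**
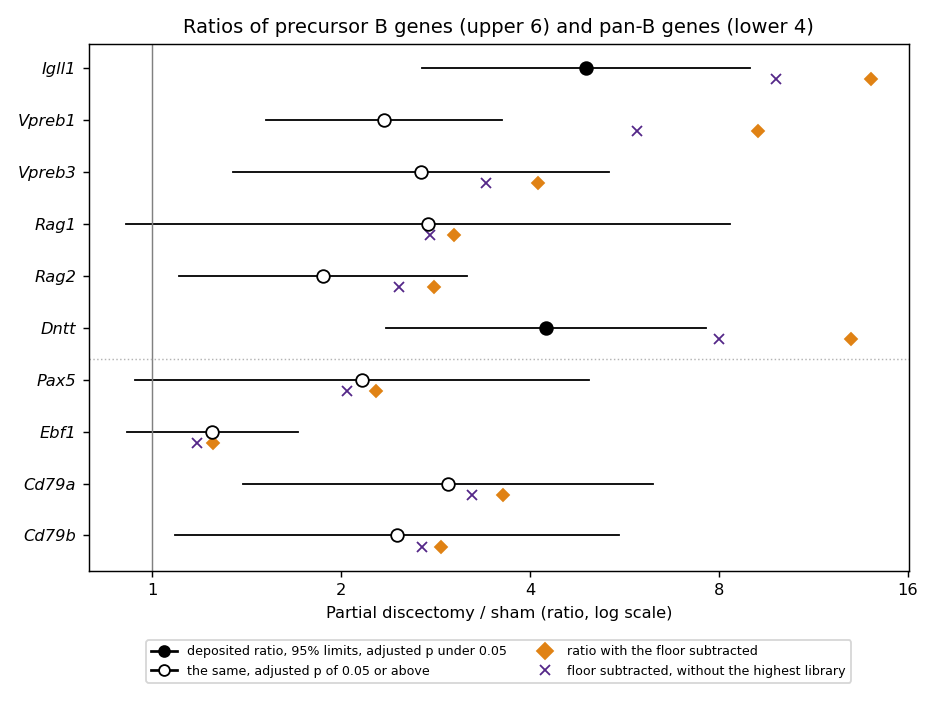
Ratio of partial discectomy to sham on a log axis for the 6 precursor genes and the 4 pan-B genes, as deposited with its 95% limits (circles, filled where the adjusted p is under 0.05), with the floor subtracted (diamonds) and also without the highest library (crosses). The diamonds of Igll1, Dntt and Vpreb1 lie at 14.0, 13.0 and 9.24, and those of the pan-B genes between 1.25 and 3.62.

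Set side by side, the precursor genes had ratios of 1.87 to 4.91 and a median log2 ratio of 1.44, and the pan-B genes 1.25 to 2.95 and a median of 1.20, where the median of all genes was 0.08, by the authors' deposited table. The difference of the 2 medians was 0.24 on the log2 scale, and the limits of Igll1 and Dntt overlap those of Cd79a, Cd79b and Pax5. The distance depends on the floor. With the floor subtracted the precursor genes had ratios of 2.81 to 14.0 and the pan-B genes 1.25 to 3.62, with medians of 2.63 and 1.36 and a difference of 1.27. The 3 precursor genes with the highest floor-subtracted ratios were also those with sham means under 0.5 above the floor, where a small error in the floor moves a ratio most. No test was made of this difference, since the 10 genes share the same libraries.

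Other B lineage genes had ratios above 1 as well, with most single genes short of the threshold. Over 4 lists of early markers, transcription factors, receptor signalling and mature surface proteins, every one of the 47 genes was higher by ratio, against 62.7% of all genes. Of the 47, 9 were called, all higher, in the authors' deposited table, against 2.28% of all genes. As given below, other blood cells also make all of these 9 but Ighd. The part of such cells in the ratios of all 47 genes was not tested. The early list had 4 of 9 called, with a median log2 ratio of 1.20. In the authors' deposited table these were Flt3, a receptor of early progenitors (2.30-fold, 95% limits 1.76 and 3.01), Cd24a (3.94-fold), Spn, which encodes CD43 (4.30-fold), and the chemokine receptor gene Cxcr4 (3.08-fold). Other blood cells make these 4 genes too. Il7r, the receptor for the growth factor of early B cells, had a ratio of 2.62 (95% limits 1.12 and 6.11, adjusted p = 0.189) in the authors' deposited table.

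Of 14 further transcription factors none was called in either direction in the authors' deposited table, 12 were higher and 0 lower at an unadjusted p under 0.05, and the median log2 ratio was 1.20. The smallest p among them was that of Ikzf1, which encodes Ikaros, a factor of lymphoid and other blood cells. Its ratio was 4.05 (95% limits 1.79 and 9.16, adjusted p = 0.0528) in the authors' deposited table. Of 13 receptor signalling genes 3 rose in the authors' deposited table, the kinase gene Btk (2.33-fold), Vav1 (2.54-fold) and the phosphatase gene Ptpn6 (2.86-fold), all of which myeloid cells also make.

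Genes of mature B cells had ratios above 1 too. Of 11 such genes 2 rose in the authors' deposited table, Ighd, the heavy chain of IgD on mature cells (4.35-fold, 95% limits 2.34 and 8.08, adjusted p = 0.0223), and Cd37 (2.78-fold), which other white cells share. The median log2 ratio of the list was 0.87. Ighm, the heavy chain of IgM, had means of 75.6 and 32.1, a ratio of 2.36 (95% limits 0.754 and 7.37, adjusted p = 0.267) in the authors' deposited table. Its sham libraries differed at least 4.30-fold, as those of Rag1 differed widely. Ms4a1, which encodes CD20, had a ratio of 2.44 (adjusted p = 0.246) in the authors' deposited table, with sham libraries at least 2.56-fold apart.

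A list of 11 genes covers proteins that join the ends cut by RAG, which most cells make, and cofactors of the cut itself. None of the end joining genes was called in the authors' deposited table, and 1 of the 11 genes rose. It was Hmgb2, a DNA-bending cofactor of the RAG cut that dividing cells make in plenty (2.88-fold, 95% limits 2.04 and 4.05). The median log2 ratio of these 11 genes was 0.28. Cell cycle genes were higher in the same comparison, with 10 of 10 ratios above 1, a median log2 ratio of 1.11 and summed levels above the floor of 519 and 202, of which Aurka alone was called in the authors' deposited table. The part of cell division in the change of Igll1, Dntt and Hmgb2 was not tested.

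**Figure D3:**
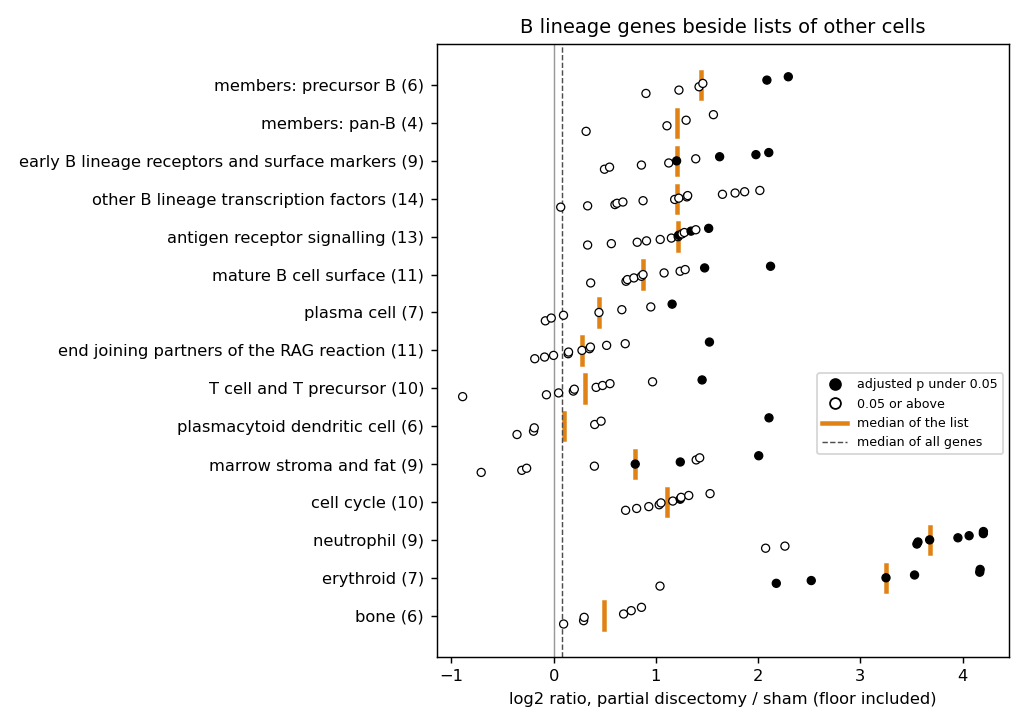
The log2 ratio of each gene by list, with genes called at an adjusted p under 0.05 filled, the median of each list as an orange bar and the median of all genes as a dashed line; the number of genes is in parentheses. The 6 uppermost B lineage lists have medians between 0.87 and 1.44, below the 3.68 of the neutrophil list and the 3.25 of the erythroid list.

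Rag1, Rag2 and Dntt are also used by T cell precursors, which develop in the thymus, and plasmacytoid dendritic cells share some early lymphoid genes. Of 10 T cell genes the authors' deposited table called Lck higher and none lower, while 5 were higher and 1 lower at an unadjusted p under 0.05 and 8 of the 10 ratios were above 1. Their median log2 ratio was 0.31, or 1.45 with the floor subtracted, and partial discectomy libraries were certain to lie above all sham libraries for 5 of them. The summed levels above the floor were 31.8 after partial discectomy and 32.5 in sham, most of them from Tcf7 (16.0 and 16.8) and Bcl11b (4.88 and 9.89), which had ratios below 1. The defining receptor genes Cd3d, Cd3e and Cd3g had sham means of 1.09, 1.20 and 1.04 and partial discectomy means of 1.25, 2.35 and 1.45, and none of these 3 was called in the authors' deposited table. With the floor subtracted their ratios were 2.69, 6.71 and 10.7, from levels near the floor, as for Vpreb1. Ptcra, also on the T cell list, was not among the 23170 genes under that name. The part of T lineage cells in the change of Dntt, Rag1 and Rag2 was not tested. Of 6 plasmacytoid dendritic cell genes Ly6c2, which monocytes make in plenty, was called higher in the authors' deposited table and none lower, with a median log2 ratio of 0.11.

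Genes of other marrow and blood cells were higher in the same comparison. Of 9 neutrophil genes the authors' deposited table called 7 higher, Camp, Ltf, Mmp8, Ngp, Retnlg, S100a8 and S100a9, and of 7 erythroid genes 6, among them Alas2, Hba-a2, Hbb-bs, Klf1 and Slc4a1. The median log2 ratios were 3.68 and 3.25. The summed levels above the floor were 1302 after partial discectomy and 98.1 in sham for the neutrophil list, and 223 and 11.5 for the erythroid list. Whether more marrow or blood in the dissected bone has a part in the ratios of the B lineage genes was not tested.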

How the data were processed

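RNA of 3 sham and 3 partial discectomy libraries was measured by sequencing. The submitters' processing notes name the aligner STAR (2.6.1d) and mm10. How reads were counted, filtered, normalized and tested is not given in the sources used here. The deposited table holds group means and summaries over libraries as a normalized signal of unnamed unit. The authors made the deposited ratio by dividing the group means, the deposited log2 column is its logarithm, and the deposited signed fold change with its 95% limits is treated as a score because it takes negative values, all per the file headers. The deposited p-value comes from an unnamed model, and its deposited adjustment equalled Benjamini-Hochberg over all 23170 genes. The second deposited file holds gene positions only and was not used. With no values per library, no model could be fitted and the authors' statistics stand in for one. The signed limits were turned into ratios. Ranges of the lowest and highest library were computed (Python 3.11.15, numpy 2.4.6) from the group means, highest value and geometric mean, with every value at or above 1. Some set of 6 such values existed for every gene, and the procedure was tested on simulated data. Gene ends are given as 1 less than the table's stop, which equals the GENCODE M21 end for the 10 genes. Depth is unknown, so no interval that needs it is given.

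The 10 genes and all lists were chosen with earlier results of these data known. Named genes are the 10, the called genes of each list, the gene of smallest p in lists without a call (in the bone list Dmp1), Vpreb2, the Ebf paralogs, Ighm and Ighd. Il7r, Ms4a1, Cd3d, Cd3e, Cd3g, Tcf7, Bcl11b, Prrx1, Pdgfra and Pdgfrb were named after their values were seen. Ptcra is named only because it was not found. A few genes of the lists are counted with their list but not reported here by name. Alternatives were the floor subtracted, a pseudocount of 0.5, 2 other centres, filters on the mean, other call rules and, chosen after seeing the data, the pan-B genes without Ebf1.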

Additional observations from a re-analysis of the deposited data

How the results depend on the processing

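Igll1 and Dntt stayed called, and no other of the 10 genes was called, when the p-values of the authors' deposited table were adjusted over genes with a mean of at least 1 above the floor, which leaves out Vpreb1. Igll1 and Dntt pass that minimum through their partial discectomy levels, since their sham means above the floor, 0.430 and 0.371, are below it, so the kept calls are no sign of stability. With a minimum of 5 the count was 0, because only 5 of the 10 genes, neither Igll1 nor Dntt among them, are then tested. By the deposited 95% limits 7 genes were higher and by the unadjusted p 9. No ratio changed direction under any alternative, but most could not have reversed one. Subtracting the floor, the pseudocount, the filters and the call rules keep the direction by construction. The 2 other centres moved each log2 ratio by 0.08 and 0.13, less than the smallest of the 10, 0.32 for Ebf1. Only leaving out the highest library could have reversed a ratio. It could not do so for Igll1, Vpreb1 and Dntt, whose partial discectomy libraries all lay above the sham libraries. With the floor subtracted the medians of the precursor and pan-B genes were 2.63 and 1.36, a difference of 1.27 on the log2 scale. With a pseudocount of 0.5 added after that, the precursor median was 1.70 and the difference 0.42. Centred on the log2 ratio of the summed means, 0.13, the medians were 1.31 and 1.07. Without the highest partial discectomy library of each gene, floor subtracted, they were 2.17 and 1.23, a difference of 0.94. Without Ebf1 and with the floor subtracted the pan-B median was 1.53 and the difference 1.10, and with the floor included 1.30 and 0.15. The size of the difference between both sets therefore rests on the reading of the floor. Other libraries could not be left out one by one, and edgeR and DESeq2 were not run, as the table holds no counts per library. No paired analysis was possible because the table holds group means and no values per library, so the number that 1 sham and 1 partial discectomy library share could not be used.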

Other observations

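Within the span of Pax5, 3 genes lie on the opposite strand, of which GENCODE annotates Gm12462 as a long noncoding RNA and the other two as awaiting experimental support, and none of them was called, although all were higher by ratio, in the authors' deposited table. 5730488B01Rik had means of 2.12 and 1.26 and a ratio of 1.68 (adjusted p = 0.0776), 4930517J16Rik a ratio of 1.51 and Gm12462 one of 1.50, per the authors' deposited table. Whether the authors' counting used strand is not given, so reads of these genes and of Pax5 cannot be told apart here.

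Genes of antibody-secreting plasma cells, the last step of the lineage, had ratios from 0.946 to 2.23 and a median log2 ratio of 0.44. The part of other cells in the levels of these genes was not tested. Of 7 such genes 1 rose, Mzb1, which helps fold antibodies (2.23-fold, 95% limits 1.68 and 2.97, adjusted p = 0.0143), from a sham mean of 1.11, close to the floor, in the authors' deposited table. Jchain, the joining chain of secreted IgM and IgA, had a ratio of 1.93 (adjusted p = 0.422) and was not called in the authors' deposited table. It was chosen after its value was seen.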
